A study of Toxocara canis with 2 samples.

Results

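Unigenes annotated as fatty acid and lipid enzymes were compared between 1 whole-body library of an adult male and 1 of an adult female Toxocara canis, the intestinal roundworm of dogs, both of the strain given as Rongchang. A unigene is a transcript assembled from the reads, and its name is the best match in a protein database. Members were all unigenes of the authors' annotated comparison table whose Swiss-Prot or KEGG description names acyl-CoA, fatty acids, a desaturase, an elongation enzyme, a lipase or phospholipase, sphingomyelin, ceramide or an acyltransferase. These terms took 152 of 21280 unigenes, of which 6803 carry a Swiss-Prot or KEGG name. Of the 152, 92 matched in both descriptions, 27 in Swiss-Prot alone and 33 in KEGG alone. Every member entered the authors' table because it differed at least 2-fold between the libraries with a deposited false discovery rate under 0.001, so lipid enzymes with smaller differences are not among them.

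Fatty acids reach enzymes bound to carrier proteins, are activated by joining to coenzyme A, and are then either shortened by beta-oxidation, lengthened and desaturated, or transferred to glycerol and sphingoid backbones. Lipases and phospholipases release them again. Adult ascarids live in a gut with little oxygen, where the mitochondrial acyl-CoA enzymes of Ascaris also run towards synthesis of branched-chain acids. Ascarid eggs are stocked with triacylglycerol, which the embryo later oxidises. A whole-body extract of a female worm holds ovary, uterus and any eggs they carry, and that of a male worm holds testis. In such a bulk sample a smaller number of cells of a type and less RNA per cell cannot be told apart.

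Each library came from the RNA of 1 worm, with 18.4 M fragments for the male and 19.8 M for the female. Values are FPKM, fragments scaled to unigene length and library total, and where one level is set against another the male library comes first. Summed markers of the sexes stood as the labels give them. Of 44 unigenes named as sperm protein, 43 were higher in the male library, where they took 1.90% of fragments against 0.00196% in the female library. The 12 vitellogenin matches, yolk precursors, took 0.0869% of male and 8.28% of female fragments, although by count 10 of these matches were higher in the male worm. Their part in the differences below was not tested. Each sex had no replicate, so no p-value was computed. Fold differences are ratios of library shares with an exact 95% binomial (Clopper-Pearson) interval, which covers counting error only. A count of 0 was set to 3 fragments to give a lower bound. A member was called when its higher level was 5 FPKM or more and the log2 ratio of female to male FPKM, after adding 1 FPKM to both, had a size of 2 or more. That is 4-fold on a scale that understates differences of low unigenes. The log2 ratios given further on use the same scale.

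Of the 152 lipid unigenes, 107 were higher in the female library, a share of 70.4% beside 53.8% of the 6803 described unigenes. The other 45 were higher in the male library, beside 46.2% of described unigenes. By the size rule 30 members were higher in the female library, or 19.7%, where 9.05% of described unigenes were called in that direction. Another 9 members were called higher in the male library, or 5.92% against 13.8%. When libraries were scaled to the median count ratio of shared unigenes instead of the library total, 22 members were called higher in the female and 12 in the male library, beside 6.56% and 14.5% of described unigenes. That scaling lowered the median log2 ratio of all unigenes by 0.13; its factor of 1.28 is smaller than the 2-fold at which members entered, so it could change no direction. Over the 117 members averaging 1 FPKM or more the median log2 ratio was 1.36, beside 0.98 over 4939 described unigenes with that mean. Over all 152 members it was 1.08, beside 0.56. Together the members took 0.357% (0.354 to 0.359%) of male and 0.647% (0.644 to 0.651%) of female fragments. No test of these shares was possible without replicates.

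**Figure D1:**
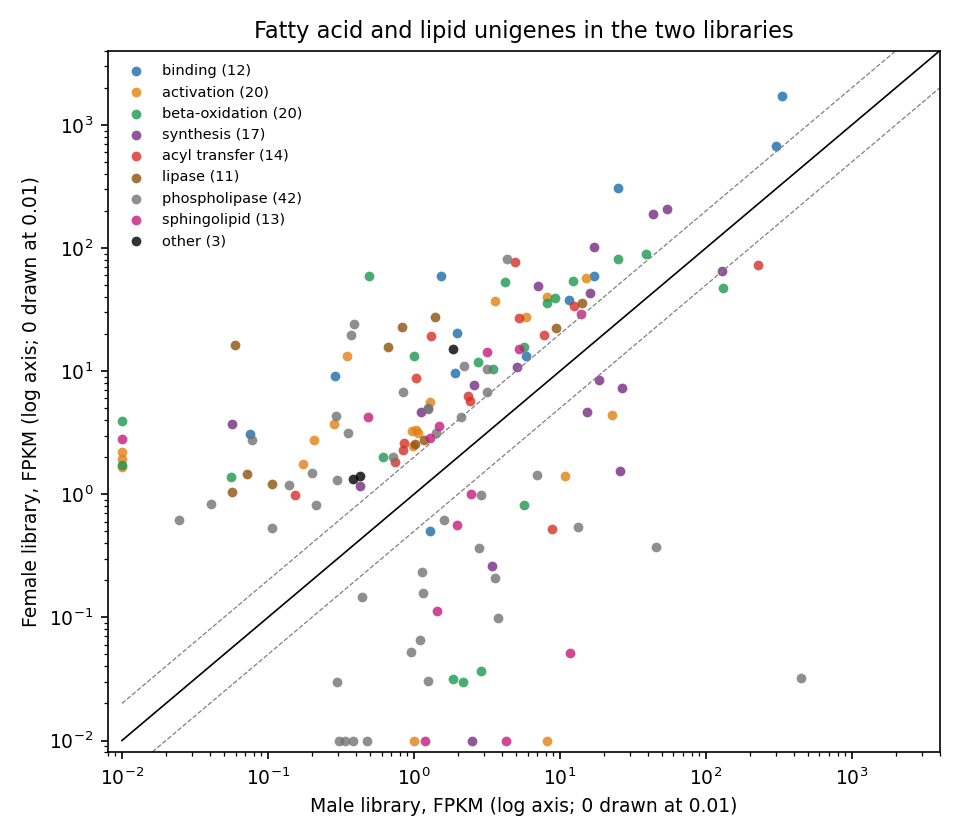
Level of each of the 152 unigenes in the male (horizontal) and female (vertical) library, in FPKM on log axes, coloured by metabolic step with the number of unigenes in brackets; a level of 0 is drawn at 0.01. The solid line marks equal levels and the dashed lines a 2-fold difference, and 107 points lie above the solid line, with an acyl-CoA-binding protein at 1713 FPKM in the female library as the highest.

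The carrier proteins had the highest summed FPKM of the steps in both libraries. By share of fragments, which grows with unigene length, synthesis enzymes were above them in both libraries. In the male library the phospholipase, acyl transfer and beta-oxidation steps were above them too. Of 12 binding proteins, 11 were higher in the female library and 5 were called higher there, beside 53.8% and 9.05% of described unigenes. All 12 summed to 701 FPKM in the male library and 2904 FPKM in the female one. Acyl-CoA-binding protein holds activated fatty acids in the cytosol. All 5 of its unigenes were higher in the female library. Unigene1865 was at 331 FPKM in the male library and 1713 FPKM in the female one, 5.17-fold higher (95% interval 4.96 to 5.40), and made up 59.0% of the female level of the binding group. CL5655.Contig1 stood at 25.0 against 309.8 FPKM, a 12.4-fold female excess (10.6 to 14.6). Its sister contig CL5655.Contig2 stood at 1.53 against 59.0 FPKM, 38.7-fold higher (25.8 to 60.6), and the fragments of both gave a 15.7-fold excess (13.5 to 18.2). Contigs of one CL cluster are related sequences and may share reads, so they are not independent. Lower in the order came Unigene506 at 17.2 and 58.8 FPKM and Unigene5000 at 5.87 and 13.4 FPKM. For 3 of the 5, the best hit in the Nr database was a frog protein, and for the other two a nematode one.

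Fatty acid-binding proteins carry free fatty acids, and all 6 unigenes of this family were again higher in the female library. The level was set by Unigene4526, a match to homolog 5, at 303 FPKM in the male library and 669.6 FPKM in the female one, a 2.21-fold difference (2.12 to 2.31). The larger differences belonged to matches to homolog 2, whose best Nr hit was LBP-3, a lipid-binding protein of Caenorhabditis. Among them Unigene41223 was at 0.289 against 9.13 FPKM, a 31.6-fold female excess (13.3 to 98.4). Unigene14269 was at 1.98 against 20.3 FPKM, 10.2-fold higher (8.54 to 12.4). CL2140.Contig1 had 1 male and 44 female fragments, a ratio of 40.8 with a wide interval (6.96 to 1649). With its sister contig, at 17 male and 28 female fragments, the cluster ratio was 3.71 (2.19 to 6.61). The exception among the carriers was a match to a fatty-acid and retinol-binding protein, CL499.Contig2, at 1.29 FPKM in the male library and 0.504 FPKM in the female one.

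Enzymes that activate fatty acids by joining them to coenzyme A were mostly higher in the female library, but the long-chain ligases went both ways. Of 20 activation unigenes, 16 were higher in the female library and 4 in the male, beside 53.8% and 46.2% of described unigenes. Called were 4 and 3, beside 9.05% and 13.8% of described unigenes. The 4 on the male side were all long-chain ligases, a family of 12 unigenes that summed to 71.6 FPKM in the male library and 165 FPKM in the female one. Unigene20675, a match to ligase 4, was the most abundant at 15.0 against 57.5 FPKM, a 3.83-fold female excess (3.53 to 4.16). Unigene11301, a match to ligase 5, was at 8.11 against 40.0 FPKM (4.93-fold, 4.38 to 5.57). All 3 member contigs of CL3149, also matches to ligase 5, were higher in the female library. CL3149.Contig1 had the largest log2 ratio of the step on that side at 0.347 against 13.2 FPKM, 38.0-fold (22.1 to 71.9), and CL3149.Contig3 stood at 3.59 against 37.3 FPKM (10.4-fold, 9.07 to 12.0). Over all contigs of CL3149 the excess was 11.8-fold (10.4 to 13.4).

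Other long-chain ligases belonged to the male library. CL1884.Contig1, a match to ligase 1, was at 8.13 FPKM in the male library with 0 female fragments, a male excess of at least 128-fold. CL1884.Contig2 also had 0 female fragments, at 0.999 FPKM in the male library. CL2607.Contig1 was at 22.9 against 4.41 FPKM, a 5.19-fold male excess (4.46 to 6.06). Over all contigs of CL2607 the male excess was 3.69-fold (3.26 to 4.20). Unigene9529 was at 10.9 against 1.40 FPKM (7.79-fold, 5.75 to 10.8). The most abundant long-chain ligase of the male library was thus CL2607.Contig1, and that of the female library Unigene20675. A further 7 unigenes, 6 of them matches to acyl-CoA synthetase family members 2 and 4 and the last a medium-chain synthetase by KEGG but a luciferase by Swiss-Prot, were all higher in the female library. Of these Unigene10992 led with 5.88 against 27.8 FPKM (4.72-fold, 3.99 to 5.61), and 3 had 0 male fragments at 1.66 to 2.19 FPKM in the female library. Long-chain fatty acid transport protein 4 (CL2164.Contig1), which brings fatty acids into cells, was at 1.28 against 5.57 FPKM (4.35-fold, 3.32 to 5.76), and its cluster sum differed 2.39-fold (1.99 to 2.89).

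**Figure D2:**
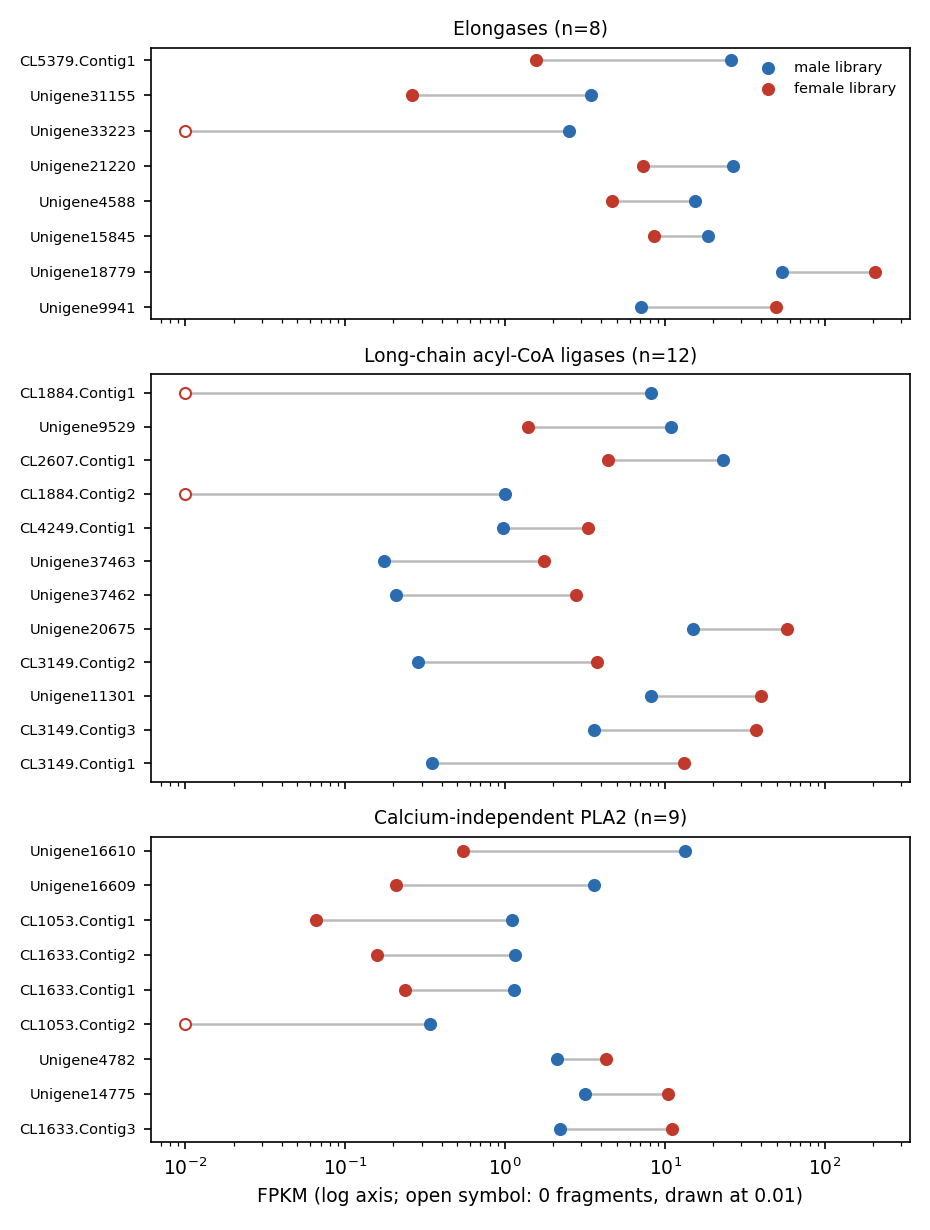
Levels of single unigenes of the elongases (8), long-chain acyl-CoA ligases (12) and calcium-independent phospholipases A2 (9) in the male (blue) and female (red) library, in FPKM on a log axis; an open symbol stands for 0 fragments and is drawn at 0.01. In each family the upper rows are higher in the male library and the lower rows in the female library, with 6 of 8 elongases on the male side.

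Beta-oxidation enzymes, which cut acyl-CoA chains, had 15 of 20 unigenes higher in the female library. Called members numbered 5 on the female side and 0 on the male side, beside 9.05% and 13.8% of described unigenes. Acyl-CoA dehydrogenases catalyse the first step of each round, and all 7 unigenes under that name were higher in the female library. A match to the short/branched chain dehydrogenase (Unigene39588) was at 0.493 FPKM in the male library and 59.4 FPKM in the female one, 120-fold higher (71.6 to 221), the largest log2 ratio among all members on the female side. Unigene10014 stood at 4.22 against 52.7 FPKM (12.5-fold, 10.5 to 14.9) and Unigene3882 at 9.32 against 39.6 FPKM (4.25-fold, 3.72 to 4.86). Swiss-Prot names both medium-chain acyl-CoA dehydrogenases, and their best Nr hit was 2-methyl branched-chain enoyl-CoA reductase, in Brugia malayi and in Ascaris suum. In Ascaris muscle this enzyme runs in the reducing direction and forms branched-chain acids as end products. Matches to acyl-CoA dehydrogenase family member 10 made up the other 4, of which Unigene19519 (12.2 against 54.1 FPKM) and Unigene20652 (8.19 against 35.9 FPKM) were each about as far apart, at 4.42-fold (4.07 to 4.81) and 4.38-fold (3.81 to 5.06).

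Further along the pathway the directions divided. Thiolases release acetyl-CoA in the last step, and the pair of thiolase unigenes went in opposite directions. Unigene6285, a match to mitochondrial 3-ketoacyl-CoA thiolase, was at 130.4 FPKM in the male library and 47.5 FPKM in the female one, a 2.75-fold male excess (2.61 to 2.89). It made up 51.1% of the male level of the step. Unigene4186, whose best Nr hit was a long-chain 3-ketoacyl-CoA thiolase, was at 39.0 against 89.5 FPKM, a 2.29-fold female excess (2.16 to 2.44). The peroxisomal multifunctional enzyme (Unigene20494) was at 24.9 against 81.3 FPKM, a 3.26-fold female excess (3.0 to 3.55); its best Nr hit was DHS-28, which in Caenorhabditis shortens the side chains of ascaroside pheromones. Both matches to the trifunctional enzyme alpha subunit were higher in the female library, Unigene23177 at 5.69 against 15.8 FPKM and Unigene7890 at 2.76 against 11.8 FPKM. On the male side, a type-2 3-hydroxyacyl-CoA dehydrogenase (Unigene7624) was at 5.69 against 0.817 FPKM (6.97-fold, 4.16 to 12.4). Acyl-CoA thioesterase 8 (CL1748.Contig2) held 68 male fragments and 1 female fragment, a ratio of 73.3 (12.7 to 2936), or 42.0 (11.2 to 353) over its cluster.

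Synthesis of fatty acids began with a female excess and ended with a split among the chain-length enzymes. Fatty acid synthase (Unigene4874), which builds palmitate, was at 17.2 FPKM in the male library and 102 FPKM in the female one, 5.97-fold higher (5.73 to 6.23). At 8326 bases it was the longest member, and its value rests on 2622 male and 16878 female fragments. Fatty acyl-CoA reductase 1 (Unigene13586), which reduces acyl-CoA to fatty alcohols, was at 43.5 against 188 FPKM, a 4.31-fold female excess (4.14 to 4.48). The most abundant desaturase went the other way. Unigene20644, a delta-9 acyl-CoA desaturase that makes monounsaturated chains, was at 129.5 FPKM in the male library and 64.7 FPKM in the female one, a 2.0-fold difference (1.88 to 2.13) and the smallest fold among the members. A further delta-9 desaturase match (Unigene41541) had 1 male and 71 female fragments. Both sphingolipid delta-4 desaturases were higher in the female library, Unigene14712 at 16.1 against 43.0 FPKM and Unigene24693 at 2.59 against 7.64 FPKM.

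Elongases add carbons to existing chains, and 6 of 8 were higher in the male library while the family sum was higher in the female. Summed levels were 153 FPKM in the male library and 278 FPKM in the female one. The sum was carried by Unigene18779, a match to elongation protein 5, at 54.0 against 206 FPKM, a 3.82-fold female excess (3.57 to 4.09). Unigene9941, with a best Nr hit to ELO-2, was at 7.06 against 49.1 FPKM (6.95-fold, 6.15 to 7.87). On the male side CL5379.Contig1 was at 25.8 against 1.55 FPKM, a 16.7-fold male excess (12.3 to 23.1). Its sister contig CL5379.Contig2 went the other way at 0.995 against 3.69 FPKM, and the cluster sum was 8.56-fold male (6.86 to 10.8). Unigene21220 stood at 26.6 against 7.31 FPKM (3.63-fold, 3.06 to 4.34), Unigene15845 at 18.6 against 8.49 FPKM and Unigene4588 at 15.4 against 4.67 FPKM. Unigene31155 was at 3.44 against 0.263 FPKM, and the short Unigene33223, of 282 bases, had 13 male and 0 female fragments. The male library thus held 4 elongases between 15.4 and 26.6 FPKM beside Unigene18779, whereas in the female library Unigene18779 and Unigene9941 stood above all others.

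**Figure D3:**
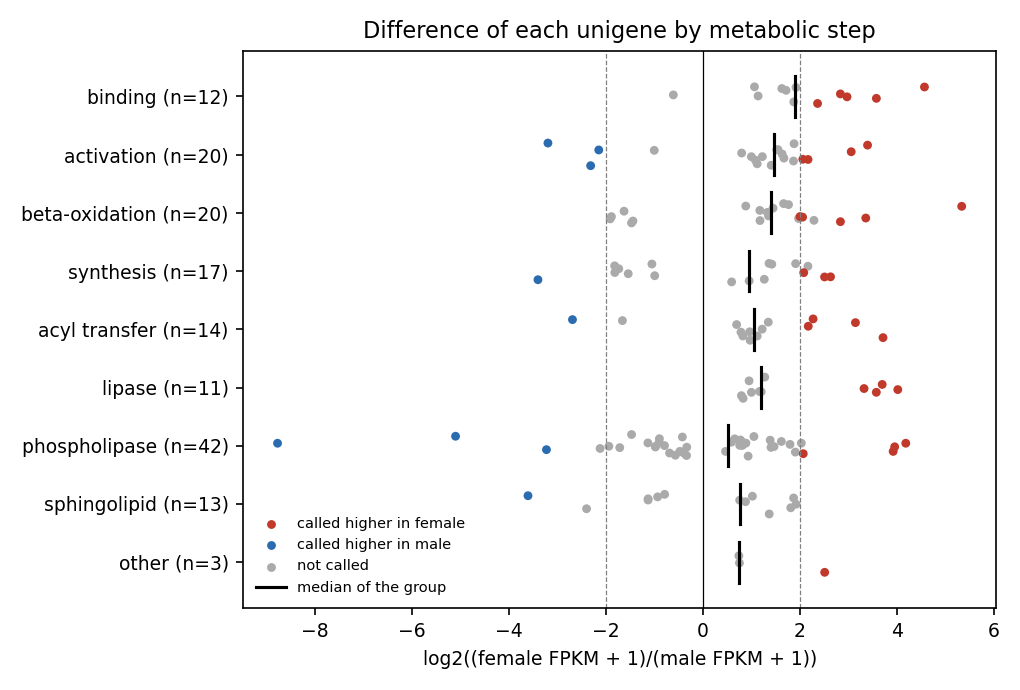
Log2 ratio of female over male FPKM, with 1 FPKM added to each, for every unigene by metabolic step; red points were called higher in the female library, blue points higher in the male, grey points were not called, and the black bar is the median over all unigenes of the step. Dashed lines mark a size of 2, and all 11 unigenes of the lipase step lie to the right of 0.

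Acyltransferases attach fatty acids to glycerol backbones, and 12 of 14 unigenes in this step were higher in the female library. The exceptions were CL5863.Contig1, described with its cluster further on, and Unigene7242. The latter is a match to the lipoamide acyltransferase of the branched-chain keto acid dehydrogenase complex, an enzyme of amino acid breakdown that the name brought in. It was at 229 against 72.1 FPKM, a 3.18-fold male excess (3.06 to 3.30), and made up 82.4% of the male level of the step. With it the step summed to 278 FPKM in each library. Glycerol-3-phosphate acyltransferase, the entry point of triacylglycerol and phospholipid synthesis, had 4 unigenes. Unigene2708 was at 4.92 against 76.8 FPKM, a 15.6-fold female excess (12.9 to 19.0), and Unigene12352 at 12.6 against 33.6 FPKM (2.67-fold, 2.43 to 2.95). Diacylglycerol acyltransferase 1 (Unigene1546), which adds the last chain of triacylglycerol, was at 5.26 against 27.3 FPKM, a 5.19-fold female excess (4.37 to 6.19). All 3 matches to 2-acylglycerol acyltransferase, which rebuild diacylglycerol, and all 3 to 1-acylglycerol-3-phosphate acyltransferase were higher in the female library. CL5969.Contig1 led the former at 1.04 against 8.88 FPKM (8.53-fold, 5.68 to 13.3), and the latter stayed at or under 5.73 FPKM in both libraries. A pair of lysophospholipid acyltransferases, which rebuild phospholipids, summed to 8.55 against 21.4 FPKM.

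Lipases release fatty acids from stored or ingested triacylglycerol, and all 11 unigenes of this step were higher in the female library. Of these 4 were called, beside 9.05% of described unigenes. The step also took a lipase maturation factor and 2 matches to esterase CM06B1. Summed levels of the 11 were 29.0 FPKM in the male library and 149.6 FPKM in the female one. The maturation factor made up 49.0% of the male and 24.0% of the female level. The 3 matches to gastric triacylglycerol lipase, which KEGG names lysosomal acid lipase, summed to 0.955 FPKM (male) and 40.3 FPKM (female). Unigene41406 among them had 3 male and 880 female fragments, 0.0595 against 16.2 FPKM, a ratio of 272 (92.8 to 1323). Unigene14100 was at 0.823 against 22.7 FPKM, a 27.5-fold female excess (18.9 to 41.7). Among matches to the Caenorhabditis lipase ZK262.3, Unigene19032 was at 1.40 against 27.6 FPKM (19.8-fold, 13.7 to 29.5) and Unigene16864 at 0.669 against 15.7 FPKM (23.5-fold, 14.7 to 40.0). Smaller differences were seen for lipase maturation factor 2 (Unigene8898), a folding factor rather than a lipase, at 14.2 against 35.9 FPKM (2.52-fold, 2.29 to 2.79), and for the monoacylglycerol lipase ABHD12 (Unigene13649) at 9.40 against 22.4 FPKM (2.38-fold, 2.13 to 2.67). The diacylglycerol lipase CL267.Contig1 was at 1.17 against 2.78 FPKM, but its sister contig outside the authors' table was higher in the male library, at 4.49 against 3.09 FPKM. Their sum was level, at 1.01-fold male with an interval that includes equality (0.850 to 1.19).

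Phospholipases formed the largest step, with 22 of 42 unigenes higher in the female and 20 in the male library. This split is near the 53.8% and 46.2% of described unigenes. Called members numbered 4 and 3, where 9.05% and 13.8% of described unigenes were called. The summed level was 559 FPKM in the male library and 202 FPKM in the female one, but 80.0% of the male level was Unigene28801. That unigene is called 60kDa lysophospholipase by KEGG and L-asparaginase by Swiss-Prot and Nr, so its place among lipid enzymes rests on the KEGG name of a protein that cleaves asparagine. It had 12964 male fragments and 1 female fragment, 447 against 0.0320 FPKM, a ratio of 13969 (2507 to 551784). The other 3 unigenes under the same names stayed at or under 2.90 FPKM in both libraries.

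Secreted and related phospholipases A2, which free the middle chain of phospholipids, showed wide gaps in both directions. A pair of matches to the Caenorhabditis protein Y52B11A.8 showed them within one description. Unigene14730 was at 4.32 FPKM in the male library and 81.6 FPKM in the female one, an 18.9-fold female excess (15.5 to 23.2). Unigene27455 was at 45.8 against 0.370 FPKM, a 124-fold male excess (65.0 to 271). Each library thus held one of the pair as its main copy. Unigene51, a match to an acidic phospholipase A2, was at 0.391 against 24.3 FPKM, a 62.2-fold female excess (41.6 to 97.3). The 85/88 kDa calcium-independent phospholipases A2 act inside cells, and 6 of their 9 unigenes were higher in the male library. Unigene16610 led them at 13.4 against 0.545 FPKM (24.6-fold, 18.4 to 33.7), while CL1633.Contig3 at 2.19 against 11.0 FPKM and Unigene14775 at 3.15 against 10.5 FPKM led the female side. Summed over the 9, the levels were 28.2 and 26.9 FPKM.

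Phospholipase B removes both chains, and its 6 unigenes summed to 2.19 FPKM in the male library and 28.4 FPKM in the female one. Most of this was Unigene14678, at 0.368 against 19.8 FPKM, a 53.7-fold female excess (29.8 to 108). Phospholipase C produces the second messengers inositol trisphosphate and diacylglycerol, and 6 of its 8 unigenes were higher in the female library, none above 4.99 FPKM. Phospholipase D, which releases phosphatidic acid, had 5 unigenes that summed to 11.3 and 10.1 FPKM, with CL36.Contig2 at 3.76 against 0.0990 FPKM (38.0-fold male excess, 14.5 to 141).

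**Figure D4:**
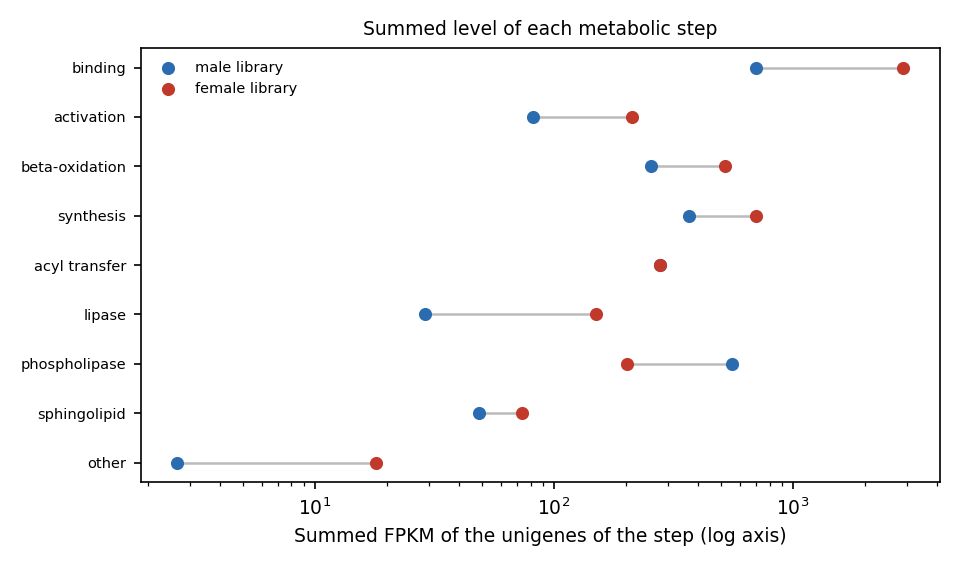
Summed FPKM of the unigenes of each metabolic step in the male (blue) and female (red) library, on a log axis. The sums were higher in the female library except for phospholipases (559 against 202 FPKM) and acyl transfer (278 FPKM in each library, where the points coincide).

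Of 13 unigenes in the sphingolipid step, 7 were higher in the female library and 6 in the male. This split is near the 53.8% and 46.2% of described unigenes, of which 9.05% and 13.8% were called. The sphingolipid delta-4 desaturases, both higher in the female library, were counted with synthesis and are not among the 13. The 7 include 2 matches to a ferric-chelate reductase, which KEGG names neutral ceramidase, at a summed 1.97 against 7.80 FPKM. Only 1 was called, Unigene29046, a match to sphingomyelin synthase, which moves phosphocholine from phosphatidylcholine to ceramide. It had 424 male and 2 female fragments, 11.8 against 0.0515 FPKM, a ratio of 228 (62.8 to 1892). A further synthase, CL131.Contig1, had 36 male and 0 female fragments, and the third, CL312.Contig1, was at 1.29 against 2.88 FPKM, with a cluster ratio of 1.46 whose interval includes equality (0.983 to 2.18). Sphingomyelin phosphodiesterases break the same lipid down. Both matches to type 2 were higher in the male library, at 1.98 FPKM or less, and both to type 4 in the female library. Of the latter, Unigene20492 was at 5.23 against 15.1 FPKM (2.89-fold, 2.39 to 3.51) and Unigene4524 at 3.19 against 14.3 FPKM (4.50-fold, 3.08 to 6.76). Ceramide kinase (Unigene13547) was the most abundant of the step in both libraries, at 13.8 against 29.2 FPKM (2.11-fold, 1.93 to 2.31). Ceramide glucosyltransferase (Unigene16698), which starts glycolipids, was at 2.45 against 1.00 FPKM. Alkaline ceramidase (Unigene28049), which splits ceramide, was at 4.26 FPKM in the male library with 0 female fragments and at least 26.6-fold higher. Ceramide synthase hyl-1 (CL5639.Contig2), which makes ceramide, had 0 male fragments, at 2.80 FPKM in the female library and at least 12.1-fold higher. Its sister contig, outside the authors' table, was present in both at 7.15 against 12.4 FPKM, and the cluster sum showed a 1.90-fold female excess (1.62 to 2.25).

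The terms also took 3 unigenes outside these steps, all higher in the female library. Fatty acid amide hydrolase 1 (Unigene17083), which ends the action of lipid amides such as anandamide in animals, was at 1.85 against 15.3 FPKM, 8.26-fold higher (6.43 to 10.8). An amidase outside the member terms, N-acylethanolamine-hydrolyzing acid amidase (Unigene11020), went the other way. It was at 79.5 against 11.0 FPKM, a 7.20-fold male excess (6.37 to 8.16). Fatty acid 2-hydroxylase (Unigene40587) was at 0.380 against 1.33 FPKM. CL894.Contig10, at 0.430 against 1.40 FPKM, is a free fatty acid receptor by KEGG and an FMRFamide receptor by Swiss-Prot. By a set of search terms, 11 members carried a Swiss-Prot name of a protein that does not act on lipids, 4 of them higher in the male library. The terms did not cover all such names, and the lipase maturation factor was not among the 11.

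Contigs assembled into one cluster could stand on opposite sides. The 67 members with a cluster name fell into 51 clusters, 14 of which held more than one member. In 7 of the 14 the members went in opposite directions. A wide gap lay in mitochondrial glycerol-3-phosphate acyltransferase, where CL5863.Contig1 was at 8.80 FPKM in the male library and 0.526 FPKM in the female one, a 16.8-fold male excess (11.8 to 24.6). CL5863.Contig2 was at 1.30 against 19.4 FPKM, a 14.9-fold female excess (11.8 to 19.1). The contigs are 3173 and 3089 bases long, and their fragments summed gave a 1.93-fold female excess (1.75 to 2.13). In alpha-methylacyl-CoA racemase, which prepares branched chains for beta-oxidation, CL1444.Contig1 was at 0.994 against 13.3 FPKM. CL1444.Contig2 was at 2.89 against 0.0368 FPKM, from 1 female fragment. The cluster sum showed a 4.07-fold female excess (3.29 to 5.09).

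Where 2 contigs of a 3-hydroxyacyl-CoA dehydrogenase (CL2137) parted, the sum was nearly level. CL2137.Contig1 had 19 male and 66 female fragments and CL2137.Contig2 had 54 and 1, and the cluster ratio was 1.17 with an interval that includes equality (0.831 to 1.66). For the L-asparaginase matches in CL1234, the sum over 5 contigs was 1.31-fold higher in the male library, again with an interval that includes equality (0.994 to 1.73). In the phospholipase D cluster CL4857, Contig1 was at 6.96 against 1.43 FPKM and Contig2 at 0.0780 against 2.75 FPKM, with a 2.08-fold male excess in the sum (1.70 to 2.55). Summed clusters of a calcium-independent phospholipase A2 (CL1633) and of phospholipase C beta (CL4133) were 1.92-fold (1.60 to 2.30) and 2.93-fold (2.46 to 3.50) higher in the female library. Whether such contigs are splice forms, alleles or separate genes is not stated in the files, and how the counting divided shared reads between them was not tested.

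**Figure D5:**
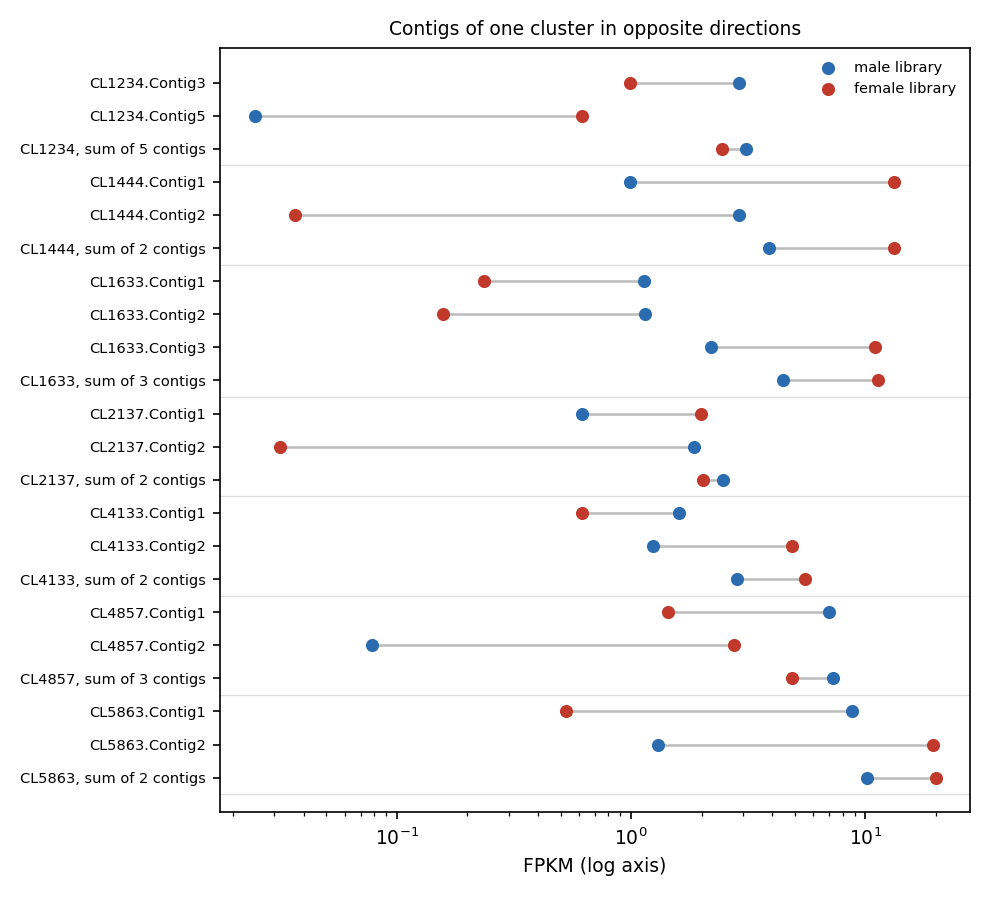
Levels of the 15 unigenes from the 7 clusters whose members went in opposite directions, and the sum over all contigs of each cluster, in the male (blue) and female (red) library in FPKM on a log axis. In CL5863 the contigs are mirrored around a sum that is higher in the female library.

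The members' median length was 1644 bases, beside 1695 for all described unigenes of the table, and lengths ran from 282 to 8326 bases. The best Nr hit of 142 lay in a nematode, mostly filarial worms and Caenorhabditis, and that of 10 in other animals. No member had fewer than 12 fragments over both libraries, while 6 had 0 male and 9 had 0 female fragments.

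A second list of lipid genes outside the member terms was chosen with results known. It was searched by terms such as carnitine, enoyl-CoA, sterol, phosphatidyl and lipoprotein and held 181 unigenes, of which 114 were higher in the female and 67 in the male library, with 28 and 20 called. The female share was 63.0% beside 53.8% of described unigenes, and the called shares were 15.5% beside 9.05% and 11.0% beside 13.8%. The median log2 ratio was 1.15 over 132 unigenes averaging 1 FPKM or more, beside 0.98. The term choline also took 27 acetylcholine and cholinesterase names, and without them 96 were higher in the female and 58 in the male library. Other terms took further proteins with no lipid name in Swiss-Prot, such as Patched proteins among the 30 Niemann-Pick names, tetraspanins and zinc finger protein 800. The shares of this list are thus not those of lipid genes alone. By term, sterol names divided 10 to 10, with 3 called higher in the female and 2 in the male library. Of 45 phosphatidyl names 22 were higher in the female and 23 in the male library. Called were 2 and 8 of the 45, beside 9.05% and 13.8% of described unigenes. A phosphatidylinositol transfer protein match (Unigene30743) was at 68.8 FPKM in the male library with 0 female fragments. Unigene28576, phosphatidate phosphatase by KEGG, was at 68.4 FPKM there, also with 0 female fragments. Acetyl-CoA carboxylase, which makes the malonyl-CoA used by fatty acid synthase, was higher in the female library in all 3 unigenes, led by Unigene11218 at 70.9 against 214 FPKM (3.03-fold, 2.92 to 3.13). All 8 unigenes with enoyl-CoA in their name were also higher there. Unigene12376, an enoyl-CoA hydratase of beta-oxidation, was at 8.76 against 72.0 FPKM (8.22-fold, 7.22 to 9.41).

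Carnitine carries acyl groups into mitochondria, and 4 of 5 unigenes with that name were higher in the male library. Unigene14709, named carnitine/acylcarnitine carrier CACL by Swiss-Prot, is member 20/29 of solute carrier family 25 by KEGG. It was at 110.7 FPKM in the male library and 0.657 FPKM in the female one, a 168-fold male excess (112 to 266). What it transports was not tested. Both matches to carnitine palmitoyltransferase 1, the gate of mitochondrial oxidation, were higher in the male library, Unigene8730 at 26.2 against 11.3 FPKM and Unigene3946 at 18.1 against 8.92 FPKM. The matches to carnitine palmitoyltransferase 2 parted, with CL5028.Contig1 at 4.13 against 19.7 FPKM and CL983.Contig2 at 4.44 against 0.815 FPKM. Acetyl-CoA acetyltransferase, which joins or splits acetyl-CoA units, had one unigene with a very wide gap. Unigene41502 was at 0.169 against 502 FPKM, a 2964-fold female excess (1504 to 6866), whereas Unigene9909 and CL5081.Contig3 were higher in the male library at 9.45 and 7.26 FPKM. Both unigenes of the glyoxylate cycle, by which embryos of nematodes turn fat into sugar, were nearly confined to the female library, Unigene40809 with 1 male and 139 female fragments and Unigene40808 with 0 and 41.

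Among lipid carriers and their receptors, 7 of 9 unigenes with lipoprotein in a name were higher in the female library and 2 in the male. An apolipophorin match (Unigene8806), a large lipid transfer protein, was at 69.4 against 382 FPKM, a 5.50-fold female excess (5.40 to 5.61). The match to LDL receptor-related protein 2 (Unigene4978) was at 11.7 against 192 FPKM (16.4-fold, 15.3 to 17.6). The sortilin-related receptor match (Unigene2470) was at 0.901 against 193 FPKM, a 214-fold female excess (153 to 309). Receptors of this class take up lipoproteins, yolk precursors among them, in other animals. On the male side, an LDL receptor-related protein match (CL5858.Contig1) had 337 male fragments and 1 female fragment, at 2.50 FPKM in the male library. Unigene27705, LDL receptor-related protein 2 by KEGG but prohormone-4 by Swiss-Prot, had 75 male and 0 female fragments.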

How the data were processed

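RNA of the whole body of each worm was taken up in Trizol, per the labels' protocols, and poly-A RNA was fragmented, copied from random primers, size-selected and amplified. The authors deposited fragment counts and FPKM per unigene for each library, per the file headers. The sources used here do not name the assembler, aligner, counting program or strand setting. The deposited FPKM equal the count divided by length and library total, to within 5.0e-05. The authors' deposited table of 21280 unigenes adds the log2 of female divided by male FPKM, with 0.001 in place of 0, and p-values and false discovery rates whose test is not named; these values were used here only to state how the table was filtered. All names come from that table.

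Counts and FPKM were analysed in pandas 2.3.3, SciPy 1.17.1 and NumPy 2.4.6 under Python 3.11.15, with plots from matplotlib 3.10.9, and the calculations were tested on simulated data. With 1 library per sex no test was run. Members were put into steps by ordered search terms on the Swiss-Prot, then the KEGG description. A thioesterase of acyl-proteins was kept with the phospholipases, by its KEGG name, and acetyl-CoA acyltransferase with beta-oxidation; these placements, and the families within steps, were set with values known. The exclusion of ABA-1, eggshell and Trypanosoma matches removed 0 unigenes. Per step, the naming rule took 3 members by mean level and, among those reaching 5 FPKM, the most extreme on either side, 38 in all. Other named members, and the named genes of the second lipid list, were added after their values were seen. The members, lists and tests were chosen with earlier results of these data known. Depth limits low unigenes, since 3 fragments on 1 kilobase are 0.163 male FPKM or 0.152 female FPKM. Alternatives covered the pseudocount, the FPKM minimum, the size threshold, the scaling, related contigs and the annotation source.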

Additional observations from a re-analysis of the deposited data

How the results depend on the processing

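Each library stands alone, so the values describe these libraries and not the sexes, and no replicate could be left out. No paired analysis was possible because each sex has 1 library and the labels give no replicate numbers. Against 30 members called higher in the female and 9 in the male library, the counts were 15 and 3 with a pseudocount of 5 FPKM, 56 and 16 at a log2 ratio of at least 1, and 15 and 6 at a log2 ratio of at least 3. With totals taken without the 100 most abundant unigenes of each library, which raises all FPKM, they were 42 and 14. The other 8 settings kept both counts within 1.5 times. The share of described unigenes called was computed only for the main rule and for median ratio scaling. Whether members differ from described unigenes at the other settings was thus not tested. The median log2 ratio of 1.36 was 1.08 with no FPKM minimum, 1.02 with median ratio scaling and 1.68 with 0 counts at 3 fragments and no pseudocount; the last setting was chosen after seeing the data. The medians of the 8 steps with at least 3 members past the minimum kept their direction under all settings tried. Summed levels were less stable. The log2 ratio of sums for acyl transfer went from -0.0020 to 1.55 without the most abundant member of each library and to 0.084 with the reduced totals. For phospholipases it went from -1.47 to 0.17 without the most abundant members, which are Unigene28801 and Unigene14730. With fragments summed over the cluster, an alternative chosen after seeing the data, 11 of 66 members in clusters of more than 1 contig took the other direction, and of the 55 that did not, 31 moved by over 1.5 times. Of the 11, 8 lie in the 7 clusters with members on both sides, where at least 1 must turn, and 3 in other clusters. The cluster log2 ratios were -0.39 for CL1234.Contig5, 2.03 for CL1444.Contig2, 0.94 for CL1633.Contig1 and CL1633.Contig2, -0.23 for CL2137.Contig1, 1.55 for CL4133.Contig1, -1.06 for CL4857.Contig2 0.95 for CL5863.Contig1, -0.0096 for CL267.Contig1, -0.068 for CL5651.Contig3 and 0.38 for CL2038.Contig2. Beyond this the cause was not tested.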
